A study of Homo sapiens with 15 samples.

Results

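The 10 genes described here encode the core machinery of ovarian steroid synthesis: STAR, CYP11A1, CYP19A1, HSD3B2, HSD17B1, NR5A1, FDX1, FDXR, POR and SCARB1. They were taken by symbol from a table of 37787 genes, and all 10 were in it. Their RNA was measured in HGrC1 cells, an immortalized human granulosa cell line that is not luteinized and carries normal FOXL2 alleles, at passage 14. There were 15 libraries in 5 conditions of 3 replicates each, lettered A, B and C. Vectors received empty plasmids only. FOXL2WT received SMAD3 with wild-type FOXL2, and FOXL2C134W received SMAD3 with FOXL2 carrying the cysteine-to-tryptophan change of adult granulosa cell tumors. FOXL2WT + FOXO1 and FOXL2C134W + FOXO1 received the same plasmids plus FOXO1-3A, a constitutively active FOXO1 with alanine substitutions and a Flag tag. The SMAD3 plasmid was thus in every condition but Vectors, so effects of added SMAD3 and of FOXL2 against Vectors cannot be told apart. Expression was transient: RNA was taken after 4 h of transfection and 24 h without serum, and no selection of transfected cells is stated. The labels do not say whether replicates were separate transfections, so p-values measure the spread between these libraries, which may be technical.

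Granulosa cells make estradiol by a short relay. Cholesterol enters from lipoprotein through the receptor SCARB1 and is carried into mitochondria by STAR, where CYP11A1 cuts its side chain to give pregnenolone with electrons passed from FDXR to FDX1. HSD3B2 converts pregnenolone to progesterone, theca cells supply androgens, CYP19A1 (aromatase) turns androgens into estrogens with electrons from POR, and HSD17B1 reduces estrone to estradiol. NR5A1, the nuclear receptor SF-1, is known to activate many of these genes through a short monomer motif, and FOXL2 is known to act on several of their promoters. Estrogen excess is a clinical feature of adult granulosa cell tumors, which is the reason to ask where these genes stand in this cell model.

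The promoter letters that this background points to are shown first, as a description. CYP11A1, CYP19A1, HSD3B2, NR5A1, FDX1 and FDXR were matched in a RefSeq promoter table (GRCh38.p14, 250 bases before to 50 after each start), with 13 starts in all. Of these, 7 belonged to CYP19A1 and 2 to FDXR, and the other genes had 1 each, so the windows are not separate genes. The promoters of STAR, HSD17B1, POR and SCARB1 were not analysed here. The NR5A1 monomer motif AAGGTCA, searched on both strands, was in 1 of the 13 windows, against 1377 of 35116 windows over all genes (3.92%). The shorter AGGTCA, which is contained in it and was added after the first search, was in 3 of 13 windows and in 13.8% of all windows. The 30 bases around each match are given below, 5′ to 3′ on the gene's strand, with the motif in capitals. The CYP19A1 match of the longer motif lay 131 to 125 bases before a start, and its 30 bases are chr15:51243142-51243171 (minus strand). The other CYP19A1 match lay 105 to 100 bases before a different start, and its 30 bases are chr15:51318585-51318614 (minus strand). The FDX1 match lay 16 to 11 bases before its start, within chr11:110429920-110429949 (plus strand).
CYP19A1, longer motif: gagactctaccAAGGTCAgaaatgctgcaa
CYP19A1, shorter motif: ccaggaagattgAGGTCAcagaaggcagag
FDX1, shorter motif: caatgtctttatAGGTCAcccggaaggcac
The forkhead core TGTTTAC was in 0 of the 13 windows and in 3.42% of all windows. The SMAD motif pair GTCTAGAC was in 0 of the 13 and in 0.202% of all. A match is not a binding site, and no match says only that these letters are not in these windows.

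Library totals ran from 14962245 to 25339094 estimated counts. A count of 0 still allows an expected count of up to 3, which is 0.118 to 0.201 CPM (counts scaled to a common library total) by library and is called the floor here; such limits and the intervals on summed counts cover counting error only. The transfected genes followed the labels. FOXL2 RNA averaged 8.73 CPM in Vectors (SD 0.704, n = 3), 561 in FOXL2WT, 147 in FOXL2C134W, 384 in FOXL2WT + FOXO1 and 152 in FOXL2C134W + FOXO1. SMAD3 averaged 249, 2770, 843, 969 and 392 CPM in the same order, and FOXO1 13.2, 12.2, 12, 117 and 43.2 CPM. Of 14 granulosa cell markers, 10 passed the filter on low counts. GATA4 (1953 to 3716 counts) and WT1 (607 to 1157) were well covered, while the FSH receptor gene FSHR had 0 counts in every library, ESR2 at most 3, INHA at most 4 and AMHR2 at most 7. Of 5 markers of luteinized granulosa cells, 3 passed the filter: PGR (104 to 227 counts), VCAN (342 to 833) and RUNX2 (136 to 280). The LH receptor gene LHCGR was at 0 in every library, and PTGFR had at most 1 count.

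The members spanned the whole range from abundant to undetected. On gene TPM, which is per length, the median over the 15 libraries was 85.2 for POR, 31.0 for SCARB1, 16.5 for FDXR, 8.03 for FDX1, 4.30 for HSD17B1, 3.08 for NR5A1, 1.71 for STAR and 1.14 for CYP11A1. POR, SCARB1, FDXR, FDX1 and HSD17B1 kept this order in 15 of 15 libraries, with no overlap of the ranges of neighbouring genes. Below them the ranges overlapped: HSD17B1 was above NR5A1 in 13 libraries, NR5A1 above STAR in 13 and STAR above CYP11A1 in 12. The carrier STAR and the side-chain cleavage enzyme CYP11A1 were the lowest of the 8 genes that passed the filter. STAR lay above 17.5% of the tested genes and CYP11A1 above 13.9%, whereas POR, the electron donor of all microsomal P450 enzymes, lay above 86.3%. CYP19A1 and HSD3B2 had a median of 0 TPM.

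**Figure D1:**
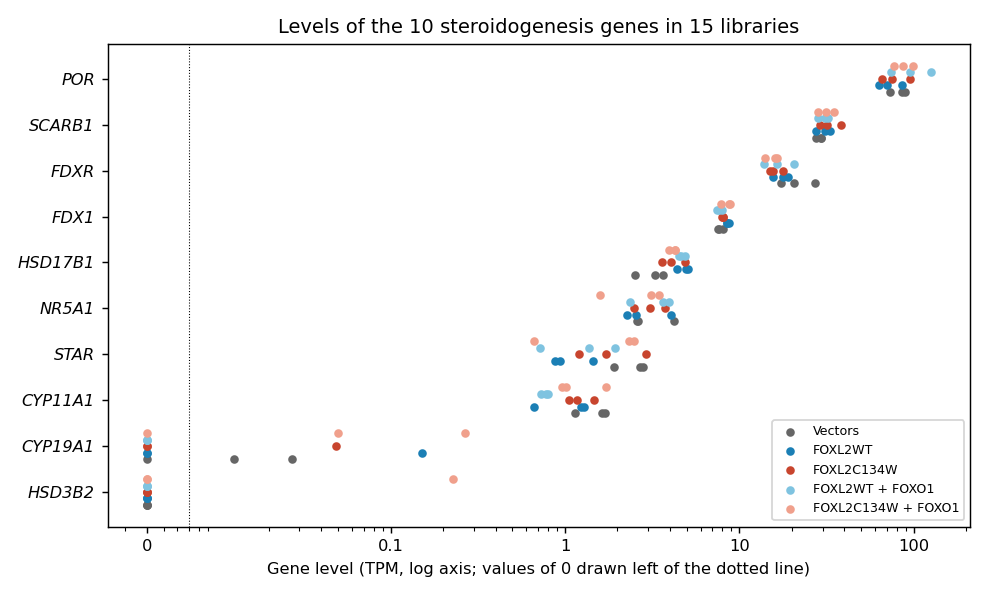
Gene level in TPM (log axis; values of 0 are drawn left of the dotted line) of the 10 genes, 1 point per library, coloured by condition. POR to HSD17B1 form separate bands, the ranges of HSD17B1, NR5A1, STAR and CYP11A1 overlap, and most libraries of CYP19A1 and all but 1 of HSD3B2 are at 0.

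CYP19A1 and HSD3B2, the enzymes at the estrogen and progesterone steps, were near the detection floor in every condition. CYP19A1 (chr15:51208057-51338601, minus strand, GRCh38) had 1, 0 and 1 counts in Vectors, 0, 1 and 0 in FOXL2WT, 0, 4 and 0 in FOXL2C134W, 0, 0 and 0 in FOXL2WT + FOXO1 and 2, 0 and 2 in FOXL2C134W + FOXO1. It was at 0 in 9 of 15 libraries and above 3 counts in 1, FOXL2C134W replicate B. HSD3B2 (chr1:119414931-119423035, plus strand) had 2 counts in FOXL2C134W + FOXO1 replicate A and 0 in the other 14 libraries. Neither passed the filter on low counts, and neither was tested in the fit reported here. With no filter edgeR called neither in any of 9 comparisons, with 0 at an unadjusted p under 0.05 and lowest adjusted p of 0.58 for CYP19A1 and 0.61 for HSD3B2.

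The sequencing depth bounds how much of these messages could have been present. Summed over 3 libraries, CYP19A1 had 2 counts of 67872056 in Vectors, or 0.0295 CPM of the summed total (exact Poisson 95% interval 0.00357 to 0.106). FOXL2WT gave 0.0175 CPM (0.000442 to 0.0974), FOXL2C134W 0.0564 (0.0154 to 0.144) and FOXL2C134W + FOXO1 0.0582 (0.0159 to 0.149). FOXL2WT + FOXO1 had 0 counts of 57097415, for which the same interval reached 0.0646 CPM. The ratio of FOXL2C134W to FOXL2WT for CYP19A1 rested on 4 counts against 1 and was 3.23, with a counting interval from 0.320 to 159. No difference between wild type and mutant in aromatase RNA was detectable at this depth. HSD3B2 had 0 counts in Vectors, FOXL2WT, FOXL2C134W and FOXL2WT + FOXO1. The exact Poisson 95% intervals there reached 0.0544, 0.0645, 0.052 and 0.0646 CPM. Its close copy HSD3B1 had at most 2 counts in any library, so splitting of reads between the copies leaves the sum near the floor as well.

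The other 8 members had at least 10 counts in every library and all passed the filter. Each was compared between conditions in 1 fit of 13868 genes with edgeR's quasi-likelihood test and Benjamini-Hochberg adjustment over all of them. Over 9 comparisons this gave 72 tests of members, and 4 of them passed an adjusted p of 0.05, all against Vectors. Comparisons with Vectors share those 3 libraries, so they are given side by side and not as independent results. In bulk RNA, a change in the share of cells and a change in RNA per cell cannot be told apart.

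Against Vectors, HSD17B1 rose in FOXL2WT, FDXR fell in both conditions with FOXL2C134W and CYP11A1 fell in FOXL2WT + FOXO1. In FOXL2WT 1 of 8 members passed the test, where 6.07% of all genes did. In FOXL2C134W it was also 1 of 8, beside 14.7% of all genes. In FOXL2WT + FOXO1 it was 1 of 8 beside 3.78%, and in FOXL2C134W + FOXO1 1 of 8 beside 9.33%; the last 2 comparisons were added after the data were seen. Members whose libraries did not overlap those of Vectors numbered 4, 1, 4 and 4 of 8 in this order, beside 31.1%, 31.8%, 22.7% and 28.4% of all genes. A count of 1 in 8 is 12.5%, and no test of the members as a set was made.

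**Figure D2:**
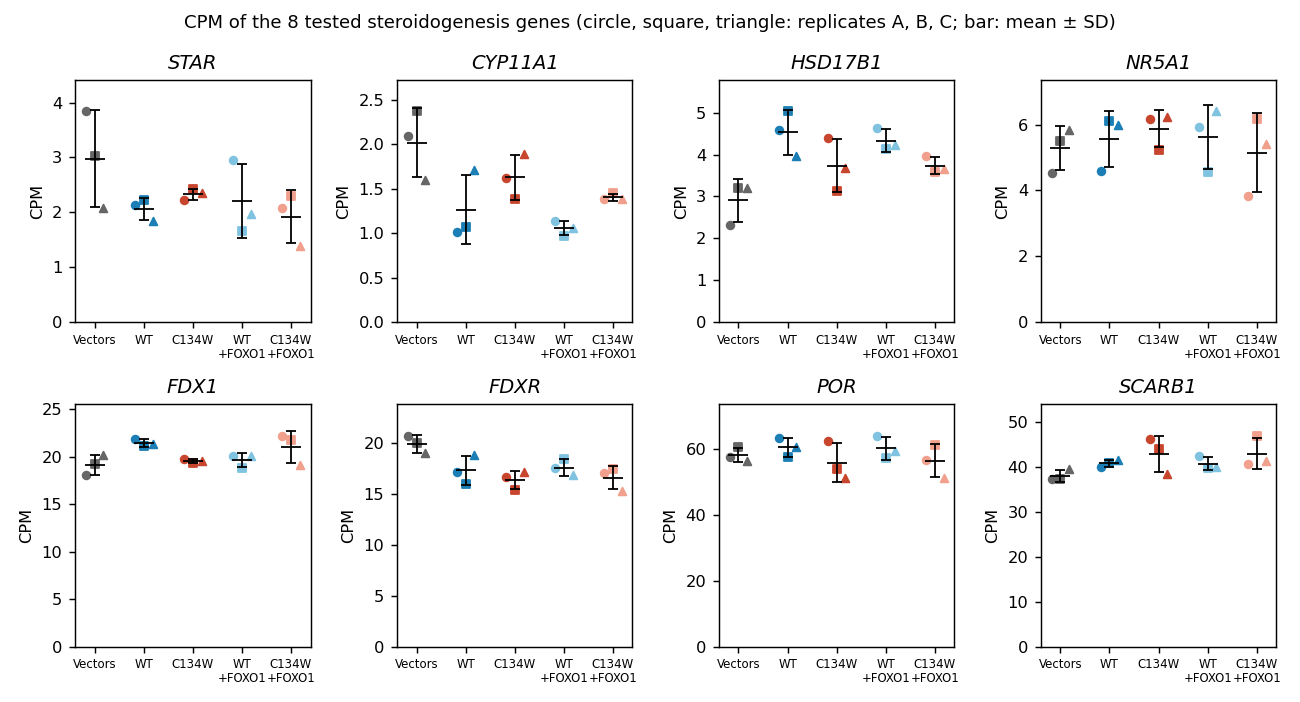
CPM of the 8 tested genes by condition (WT and C134W stand for FOXL2WT and FOXL2C134W), with 1 marker per library (replicates A, B and C as circle, square and triangle) and the mean ± SD, n = 3, in black; each axis starts at 0. HSD17B1 lies higher in FOXL2WT (3.97 to 5.03) than in Vectors (2.31 to 3.21), and STAR and CYP11A1 spread widely within Vectors.

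The cholesterol supply genes at the start of the relay gave no call. STAR (chr8:38142700-38150992, minus strand) had 3.84, 3.02 and 2.08 CPM in Vectors, 2.13, 2.22 and 1.84 in FOXL2WT, 2.22, 2.42 and 2.35 in FOXL2C134W, 2.96, 1.67 and 1.97 in FOXL2WT + FOXO1 and 2.08, 2.30 and 1.38 in FOXL2C134W + FOXO1. Vectors replicates A and B were above every FOXL2WT and FOXL2C134W library, but replicate C was not, and all 4 comparisons with Vectors overlapped. The log2 fold changes against Vectors ran from -0.63 to -0.35. The lowest, in FOXL2C134W + FOXO1, had SE 0.24 and an adjusted p of 0.12 by edgeR. Without Vectors replicate C it was -0.84 (edgeR adjusted p = 0.045), without Vectors replicate A -0.40 (0.42) and without its own replicate C -0.43 (0.36). With no filter on low counts it was -0.62 and was called (0.045). STAR counts were only 32 to 88 per library. Its exons share 338 bases with ASH2L on the opposite strand, which had 1779 to 3128 counts, and how reads there were assigned was not tested.

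SCARB1 (chr12:124776856-124882668, minus strand), the scavenger receptor that takes up HDL cholesterol, had 609 to 1166 counts. Its mean was 38.0 CPM in Vectors (SD 1.38, n = 3) and 42.9 in FOXL2C134W + FOXO1 (SD 3.49), the highest. The log2 fold change against Vectors was 0.17 (SE 0.07) in both FOXL2C134W and FOXL2C134W + FOXO1, with edgeR adjusted p of 0.097 and 0.12. Leaving out FOXL2C134W replicate C, whose 38.3 CPM lay within the range of Vectors, gave 0.25 with edgeR adjusted p = 0.020, and leaving out replicate A gave 0.12 with 0.28. In FOXL2C134W + FOXO1 the value was 0.10 without its own replicate B (edgeR adjusted p = 0.41). A gene length offset gave 0.19 in FOXL2C134W (edgeR adjusted p = 0.043), and a GC content offset gave 0.19 in FOXL2C134W + FOXO1 (0.021).

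CYP11A1 (chr15:74337759-74367646, minus strand), the side-chain cleavage enzyme, was lowest where FOXO1 was added to wild-type FOXL2. Its CPM were 2.09, 2.37 and 1.60 in Vectors, 1.01, 1.07 and 1.71 in FOXL2WT, 1.62, 1.38 and 1.89 in FOXL2C134W, 1.14, 0.974 and 1.06 in FOXL2WT + FOXO1 and 1.38, 1.45 and 1.38 in FOXL2C134W + FOXO1. The 3 libraries of FOXL2WT + FOXO1 were below all Vectors libraries, as were those of FOXL2C134W + FOXO1, while FOXL2WT replicate C and 2 of the FOXL2C134W libraries reached into the Vectors range. In FOXL2WT + FOXO1 it fell by 0.93 on the log2 scale (SE 0.25, edgeR adjusted p = 0.042). The log2 fold changes in the other 3 conditions were -0.64, -0.31 and -0.52, with edgeR adjusted p of 0.13, 0.42 and 0.18. Counts were 16 to 48 a library over all conditions. The call held in 1 of 6 fits that left out a library, without Vectors replicate C. Without Vectors replicates A or B the log2 fold change was -0.90 or -0.80 (edgeR adjusted p = 0.14 and 0.15), and without FOXL2WT + FOXO1 replicates A, B or C it was -0.98, -0.87 or -0.93 (0.082, 0.12 and 0.11). The call was also lost with the replicate letter as a block (-0.93, edgeR adjusted p = 0.060), with only the conditions compared (-0.93, 0.074) and with DESeq2 and transcript length offsets (-0.92, 0.20).

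The electron carriers split. FDXR (chr17:74862497-74873031, minus strand), the flavoprotein that draws electrons from NADPH for mitochondrial P450 enzymes, was highest in Vectors. Its CPM were 20.7, 20.0 and 19.0 in Vectors, 17.1, 16.0 and 18.8 in FOXL2WT, 16.6, 15.4 and 17.1 in FOXL2C134W, 17.5, 18.4 and 16.8 in FOXL2WT + FOXO1 and 17.0, 17.4 and 15.3 in FOXL2C134W + FOXO1. All 12 libraries with the SMAD3 plasmid were below all 3 Vectors libraries. FDXR fell by 0.28 on the log2 scale in FOXL2C134W (SE 0.08, edgeR adjusted p = 0.018) and by 0.26 in FOXL2C134W + FOXO1 (SE 0.08, edgeR adjusted p = 0.036). In FOXL2WT and FOXL2WT + FOXO1 the log2 fold changes were -0.19 and -0.18, with edgeR adjusted p of 0.16 and 0.24. The FOXL2C134W call was lost without Vectors replicate A (-0.24, edgeR adjusted p = 0.084), Vectors replicate B (-0.28, 0.056) or FOXL2C134W replicate B (-0.23, 0.10). The FOXL2C134W + FOXO1 call was lost without Vectors replicates A (-0.23, edgeR adjusted p = 0.14) or B (-0.26, 0.096) or without its own replicates A (-0.28, 0.068) or C (-0.21, 0.16). It was also lost with the replicate letter as a block or only the conditions compared (-0.26 and edgeR adjusted p = 0.051 in both) and with no filter (-0.26, 0.058). DESeq2 with transcript length offsets gave larger FDXR changes that did not pass, -0.44 in FOXL2C134W (adjusted p = 0.10) and -0.48 in FOXL2C134W + FOXO1 (0.078).

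FDX1 (chr11:110429948-110464884, plus strand), the ferredoxin that shuttles these electrons, and POR (chr7:75899200-75986855, plus strand) gave no call. FDX1 varied least of all members, with a coefficient of variation of 6.13% over the 15 CPM values and 298 to 512 counts. Its 3 FOXL2WT libraries (21.9, 21.1 and 21.3 CPM) were above all Vectors libraries (18.1, 19.2 and 20.2), a log2 fold change of 0.16 with edgeR adjusted p = 0.18. POR had 857 to 1575 counts and condition means between 55.8 and 60.4 CPM. Its 4 log2 fold changes against Vectors lay between -0.06 and 0.06.

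HSD17B1 (chr17:42552922-42555214, plus strand), the enzyme of the last step to estradiol, was the only member that rose. Its CPM were 2.31, 3.21 and 3.20 in Vectors, 4.58, 5.03 and 3.97 in FOXL2WT, 4.39, 3.13 and 3.69 in FOXL2C134W, 4.64, 4.13 and 4.23 in FOXL2WT + FOXO1 and 3.97, 3.58 and 3.66 in FOXL2C134W + FOXO1. Every library with the SMAD3 plasmid was above all Vectors libraries except FOXL2C134W replicate B. In FOXL2WT it rose by 0.63 on the log2 scale (SE 0.16, 1.54-fold, edgeR adjusted p = 0.026). In FOXL2C134W, FOXL2WT + FOXO1 and FOXL2C134W + FOXO1 the log2 fold changes were 0.37, 0.57 and 0.36, with edgeR adjusted p of 0.14, 0.056 and 0.18. The call was lost without Vectors replicate A, the lowest library (0.48, edgeR adjusted p = 0.15), without FOXL2WT replicate A (0.61, 0.085) and without FOXL2WT replicate B (0.55, 0.12). With DESeq2 and transcript length offsets it was 0.62 (adjusted p = 0.079).

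NR5A1 (chr9:124481236-124507420, minus strand), the regulator, was present at 83 to 156 counts a library. Condition means lay between 5.14 and 5.87 CPM with SDs of 0.562 to 1.20, so that the conditions overlapped throughout. Its 4 log2 fold changes against Vectors lay between -0.04 and 0.15, with 95% intervals within -0.39 and 0.50.

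**Figure D3:**
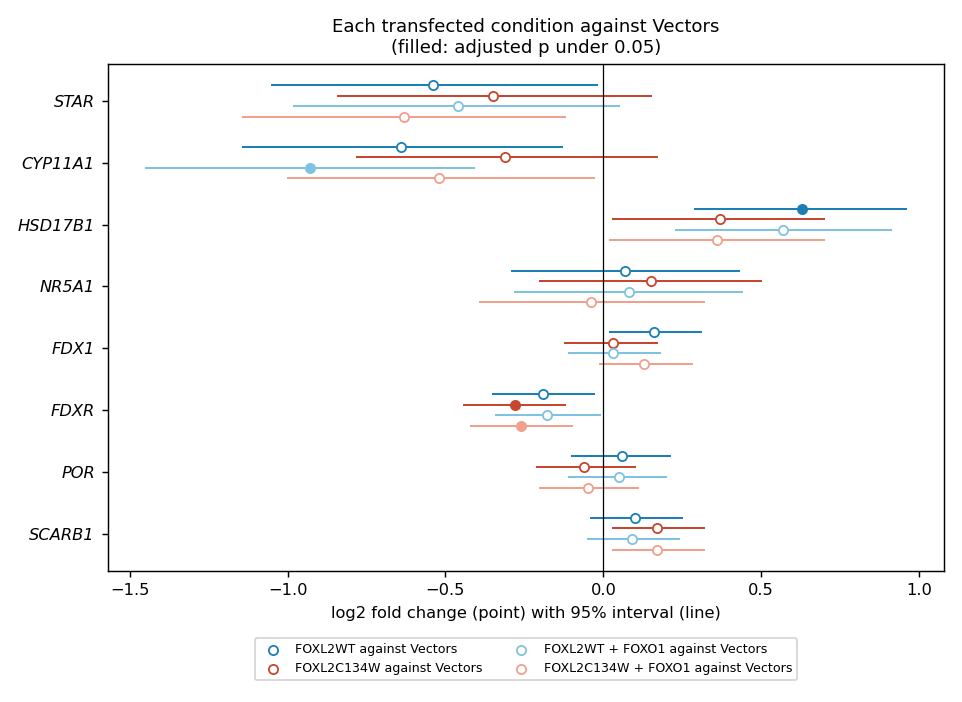
Log2 fold change of each tested gene in the 4 SMAD3 conditions against Vectors with its 95% interval; filled points passed an adjusted p of 0.05. Filled are HSD17B1 in FOXL2WT (0.63), CYP11A1 in FOXL2WT + FOXO1 (-0.93) and FDXR in FOXL2C134W (-0.28) and FOXL2C134W + FOXO1 (-0.26).

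The comparison of FOXL2C134W with FOXL2WT addresses the tumor mutation. However, FOXL2 RNA was 0.263-fold and SMAD3 RNA 0.305-fold in the mutant condition, so form and amount of construct cannot be told apart in these RNA data. At the protein level, the study describes FOXL2 and FOXO1 as balanced on an immunoblot of parallel cultures. It names no SMAD3 protein there. By edgeR 0 of 8 members passed the test, where 11.2% of all genes did, and 0 had an unadjusted p under 0.05, beside 25.5% of all genes. DESeq2 also called 0, beside 1688 of 11253 genes. The log2 fold changes ran from -0.26 (HSD17B1) to 0.33 (CYP11A1), and the lowest edgeR adjusted p was 0.22 (FDX1, -0.14). For the well-covered genes the intervals were narrow: -0.28 to 0.01 for FDX1, -0.25 to 0.08 for FDXR, -0.27 to 0.04 for POR and -0.07 to 0.22 for SCARB1. For STAR (-0.34 to 0.72) and CYP11A1 (-0.18 to 0.84) they were wider. Libraries did not overlap for 2 of 8 members, STAR and FDX1, beside 30.4% of all genes. POR, at -0.11, turned to 0.07 with transcript length offsets (DESeq2 adjusted p = 0.90).

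With FOXO1 in both arms, FOXL2C134W + FOXO1 against FOXL2WT + FOXO1, edgeR again called 0 of 8 members, beside 0.144% of all genes. At an unadjusted p under 0.05 there were 0, beside 13.5%, and DESeq2 called 0, beside 137 of 4869 genes. The arms were not matched in construct RNA: FOXL2 was 0.397-fold, SMAD3 0.404-fold and FOXO1 0.368-fold in the mutant arm. Form and amount of construct cannot be told apart here either. The log2 fold changes ran from -0.21 for HSD17B1 to 0.41 for CYP11A1. Both of these genes had libraries that did not overlap, 2 of 8 beside 15.2% of all genes. The CYP11A1 interval was -0.13 to 0.95.

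Adding FOXO1 moved no member past the test. SMAD3 RNA was 0.350-fold with FOXO1 on the wild-type background and 0.465-fold on the mutant background. In the same order FOXL2 RNA was 0.685-fold and 1.04-fold, and FOXO1 RNA rose 9.56-fold and 3.60-fold. The FOXO1 comparisons and their interaction thus also hold these differences in construct amount, which cannot be told apart from the FOXO1 effect. In FOXL2WT + FOXO1 against FOXL2WT and in FOXL2C134W + FOXO1 against FOXL2C134W edgeR called 0 of 8, beside 0.0505% and 0.714% of all genes. In both, 0 had an unadjusted p under 0.05, beside 9.13% and 11.2%. DESeq2 called 0, beside 62 of 7423 and 214 of 12105 genes. Libraries did not overlap for 1 of 8 (FDX1) and 0 of 8 members, beside 14.5% and 14% of all genes. The log2 fold changes ran from -0.29 (CYP11A1) to 0.07 (STAR) on the wild-type background and from -0.28 (STAR) to 0.11 (FDX1) on the mutant background. The interaction, the FOXO1 effect with FOXL2C134W minus that with FOXL2WT, called 0 of 8 by edgeR, beside 1.38% of all genes. By DESeq2 it also called 0, beside 365 of 11253 genes. FDX1 alone, 1 of 8 beside 12.5% of all genes, had an unadjusted p under 0.05 there: its log2 fold change with FOXO1 was -0.13 with wild type and 0.11 with mutant, a difference of 0.24 (SE 0.10, edgeR adjusted p = 0.30). The difference for NR5A1 was -0.20 (SE 0.24, edgeR adjusted p = 0.81) and for STAR -0.35 (SE 0.36, edgeR adjusted p = 0.77).

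**Figure D4:**
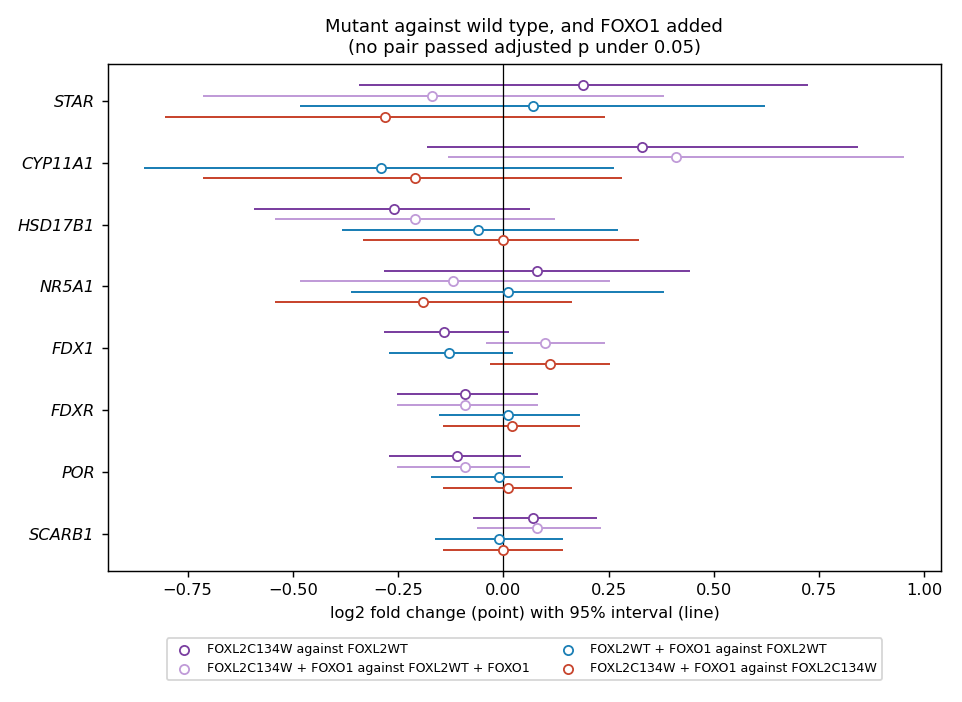
Log2 fold change of each tested gene with its 95% interval for mutant against wild type, without and with FOXO1, and for FOXO1 added to wild type or mutant; all points are open because none passed an adjusted p of 0.05. Intervals are narrow for FDX1, FDXR, POR and SCARB1 and wide for STAR and CYP11A1.

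The transcripts behind these gene values differed in how well they were resolved. FDX1 has a single transcript in the files. HSD17B1-201 took 83.4% of the HSD17B1 reads and POR-218 84.7% of the POR reads. STAR reads went to the coding STAR-201 (64.0%) and to STAR-202, a retained intron form (28.0%). FDXR reads went to FDXR-201 (49.3%), to FDXR-206, a form subject to nonsense-mediated decay (19.3%), and to others. Coding transcripts held 72.0% of the STAR, 68.6% of the FDXR and 74.0% of the SCARB1 reads and 91.1% to 100% of the reads of CYP11A1, HSD17B1, NR5A1, FDX1 and POR. TPM spread more than CPM for several members: the coefficient of variation over 15 libraries was 45.1% in TPM and 26.1% in CPM for STAR, 19.2% and 8.89% for FDXR, and 19.1% and 6.85% for POR, but 5.77% and 6.13% for FDX1. By TPM, the condition with the highest mean changed for NR5A1, POR and SCARB1 and was kept for the other 5 tested members.

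The wider pathway was described with 4 lists written from general knowledge. Of 18 genes of sterol supply and transport 17 were tested. In FOXL2WT 0 of these rose and 6 fell, in FOXL2C134W 1 rose and 8 fell, in FOXL2WT + FOXO1 0 rose and 7 fell, and in FOXL2C134W + FOXO1 1 rose and 8 fell. Over all genes 2.46% rose and 3.61% fell in FOXL2WT, 7.48% and 7.24% in FOXL2C134W, 1.41% and 2.37% in FOXL2WT + FOXO1 and 4.17% and 5.16% in FOXL2C134W + FOXO1. The list's median log2 fold changes were -0.06, -0.20, -0.11 and -0.16, where the median of all genes was 0.00 in each. ABCA1, the exporter of cholesterol to apolipoprotein, had the largest change, from 14.6 CPM in Vectors (SD 0.809, n = 3) to 6.76 in FOXL2C134W (SD 0.945), a log2 fold change of -1.12 (SE 0.11, edgeR adjusted p = 4.7e-06). INSIG1, which holds the sterol sensor in the endoplasmic reticulum, went from 41.1 to 28.1 CPM (-0.55, SE 0.07, edgeR adjusted p = 5.2e-05). LIPA, the lysosomal acid lipase, went from 94.9 to 75.4 CPM (-0.33, SE 0.04, edgeR adjusted p = 1.9e-05). As background, ABCA1 removes sterol from cells, whereas LIPA frees it from lipoprotein that was taken up. The count was 4 in FOXL2WT + FOXO1 without Vectors replicate A or without its own replicate C, and 5 in FOXL2C134W + FOXO1 without its own replicate A. With DESeq2 and transcript length offsets it was 5 in FOXL2C134W, 3 in FOXL2WT + FOXO1 and 4 in FOXL2C134W + FOXO1. Beside these, 936 of 13803, 393 of 14651 and 714 of 13803 genes were called. Calls over all genes also changed when a library was left out. They were 305 to 662 in FOXL2WT (842 with all libraries) and 1275 to 2126 in FOXL2C134W (2041). In FOXL2WT + FOXO1 they were 215 to 412 (524) and in FOXL2C134W + FOXO1 764 to 1122 (1294).

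**Figure D5:**
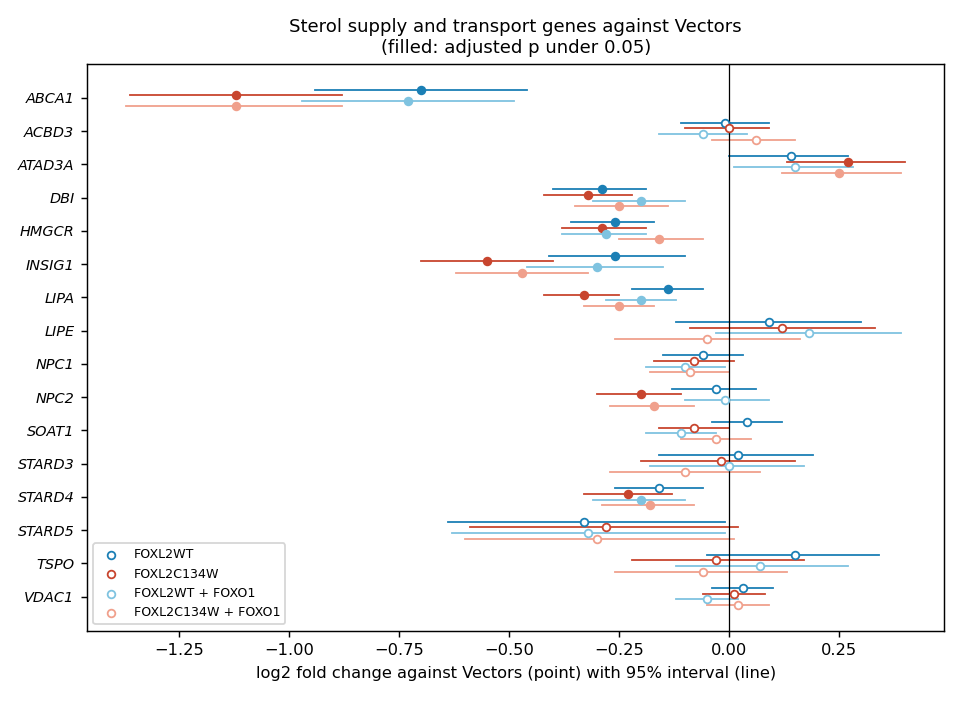
Log2 fold change against Vectors, with 95% interval, of 16 of the 17 tested genes of sterol supply and transport in the 4 SMAD3 conditions; filled points passed an adjusted p of 0.05. ABCA1 lies lowest, near -1.12 in both FOXL2C134W conditions, and ATAD3A is the gene with filled points above 0 (0.27 and 0.25).

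Between FOXL2C134W and FOXL2WT 0 of the sterol genes rose and 5 fell, including ABCA1 (-0.41), INSIG1 (-0.29) and LIPA (-0.19), where 7.13% of all genes rose and 4.12% fell. This count depended on the libraries: it was 3 without FOXL2WT replicate A or FOXL2C134W replicate C and 1 without FOXL2WT replicate B or FOXL2C134W replicate B. It was 3 with only the conditions compared and 1 with DESeq2 and transcript length offsets. Calls over all genes fell too, from 1560 to 1065, 866, 772 and 782 without these libraries in the order named. They were 1478 of 13430 genes with only the conditions compared and 708 of 11675 with DESeq2 and transcript length offsets. With FOXO1 added to either background, between both FOXO1 conditions and in the interaction edgeR called 0 of 17, with 2, 2, 7 and 3 at an unadjusted p under 0.05, beside 9.13%, 11.2%, 13.5% and 12.5% of all genes. DESeq2 called 1 in FOXL2WT + FOXO1 against FOXL2WT, in the comparison of both FOXO1 conditions and in the interaction. Over all genes it called 62 of 7423, 137 of 4869 and 365 of 11253 there.

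Of 34 other steroid-converting enzymes 19 were tested. CYP17A1 (which makes androgens in theca cells), CYP11B1, CYP11B2, HSD3B1, HSD17B3, SRD5A2, AKR1C4 and SULT2A1 had at most 3 counts in every library. Against Vectors 0 rose and 3 fell in FOXL2WT, 1 rose and 5 fell in FOXL2C134W, 0 rose and 1 fell in FOXL2WT + FOXO1 and 0 rose and 2 fell in FOXL2C134W + FOXO1. The shares called were 15.8%, 31.6%, 5.26% and 10.5% of the 19, beside 6.07%, 14.7%, 3.78% and 9.33% of all genes. Between FOXL2C134W and FOXL2WT edgeR called 0, beside 11.2% of all genes, and DESeq2 0, beside 1688 of 11253. By edgeR 2 had an unadjusted p under 0.05, beside 25.5% of all genes. HSD11B1, which regenerates cortisol, went from 1.86 CPM in Vectors (SD 0.0218, n = 3) to 0.712 in FOXL2C134W (SD 0.172), a log2 fold change of -1.37 (SE 0.27, edgeR adjusted p = 0.0019). AKR1C3, which has relatives of similar sequence among which reads could be split, went from 0.945 CPM to 0.181 in FOXL2WT, with 3 to 4 counts a library there (-2.39, SE 0.48, edgeR adjusted p = 0.0051). HSD17B7 had a log2 fold change of -0.41 in FOXL2C134W (SE 0.10, edgeR adjusted p = 0.011) and HSD3B7 of -0.50 in FOXL2WT + FOXO1 (SE 0.12, edgeR adjusted p = 0.018). HSD17B7 was not called without Vectors replicate A (-0.36) or FOXL2C134W replicate A (-0.31) or with DESeq2 and transcript length offsets (-0.45, adjusted p = 0.18), and HSD3B7 was not called without Vectors replicate A (-0.41) or FOXL2WT + FOXO1 replicates B (-0.48) or C (-0.42). The FOXL2WT count was 1 without Vectors replicates A or C or FOXL2WT replicates A or B. The FOXL2C134W count was 2 without Vectors replicate A and 3 without FOXL2C134W replicate A or with DESeq2 and transcript length offsets. The FOXL2WT + FOXO1 count was 0 without Vectors replicate A or its own replicates B or C, and the FOXL2C134W + FOXO1 count was 1 without any of the Vectors replicates or its own replicate B. Calls over all genes also moved in fits that left out a library, within the ranges given for the sterol genes. DESeq2 with transcript length offsets called 936 of 13803 genes in FOXL2C134W.

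All 10 genes for other electron donors and cofactors were tested. In FOXL2WT edgeR called 0 of 10, beside 6.07% of all genes, and DESeq2 0, beside 990 of 11679 genes. In FOXL2WT + FOXO1 edgeR called 0 of 10, beside 3.78%, and DESeq2 1, beside 664 of 11253. At an unadjusted edgeR p under 0.05 there were 0 and 1 in this order. The share of all genes at that p is not given here. In FOXL2C134W 1 rose and 2 fell, which is 3 of 10 beside 14.7% of all genes. In FOXL2C134W + FOXO1 1 fell, which is 1 of 10 beside 9.33%. Between FOXL2C134W and FOXL2WT 1 rose and 1 fell, which is 2 of 10 beside 11.2%. With DESeq2 and transcript length offsets 0 were called in each of these last 3 comparisons, beside 936 of 13803, 714 of 13803 and 708 of 11675 genes. CYB5A, the cytochrome b5 that assists microsomal P450 enzymes, had -0.30 in FOXL2C134W against Vectors (SE 0.08, edgeR adjusted p = 0.023), and CYB5B, its mitochondrial relative, had -0.21 (SE 0.04, edgeR adjusted p = 0.0022). The CYB5A call was lost without Vectors replicates A or B (-0.28 in both fits) or FOXL2C134W replicates B (-0.25) or C (-0.27), and DESeq2 with transcript length offsets called neither CYB5A (-0.27, adjusted p = 0.13) nor CYB5B (-0.16, 0.16). The FOXL2C134W count was 1 without Vectors replicate B or FOXL2C134W replicates B or C, and the FOXL2C134W + FOXO1 count was 0 without Vectors replicates A or B or its own replicates B or C, with no filter and with only the conditions compared. The FOXL2C134W against FOXL2WT count was 4 without FOXL2C134W replicate A and 1 without any other single library of the 6. Over all genes this comparison had 2120 calls without FOXL2C134W replicate A and 772 to 1132 without another library, against 1560. Against Vectors the ranges given for the sterol genes apply. In FOXL2C134W + FOXO1 1586 of 22745 genes were called with no filter and 1266 of 13473 with only the conditions compared. H6PD, which makes NADPH in the endoplasmic reticulum, had 0.28 in FOXL2C134W against FOXL2WT (SE 0.06, edgeR adjusted p = 0.0085), but 0.09 with a gene length offset (edgeR adjusted p = 0.30) and 0.26 with DESeq2 and transcript length offsets (adjusted p = 0.081).

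Of 35 regulators of steroidogenic genes 28 were tested, and NR0B2, ESR1, ESR2, LHCGR and FSHR had at most 3 counts in every library. Against Vectors 2 rose and 3 fell in FOXL2WT, 1 rose and 3 fell in FOXL2C134W, 1 rose and 1 fell in FOXL2WT + FOXO1 and 2 rose and 2 fell in FOXL2C134W + FOXO1, while 2 rose and 0 fell between FOXL2C134W and FOXL2WT. The shares called were 17.9%, 14.3%, 7.14% and 14.3% against Vectors, beside 6.07%, 14.7%, 3.78% and 9.33% of all genes, and 7.14% between FOXL2C134W and FOXL2WT, beside 11.2%. DESeq2 with transcript length offsets called 3 in FOXL2WT, 1 in FOXL2C134W and 1 in FOXL2WT + FOXO1. Over all genes it called 459 of 13803, 936 of 13803 and 393 of 14651 there. SREBF1, a driver of lipid synthesis genes, had a log2 fold change of -0.53 in FOXL2C134W + FOXO1 (SE 0.09, edgeR adjusted p = 5.6e-04). CEBPB, a cAMP-responsive activator, had 0.54 in FOXL2WT (SE 0.11, edgeR adjusted p = 0.0086), and 0.50 with adjusted p 0.064 without Vectors replicate A. NR2F2, the receptor COUP-TFII, had 0.32 in FOXL2C134W (SE 0.05, edgeR adjusted p = 1.3e-04). These changes were not confined to the condition named. Mean CPM (n = 3) follow in the order Vectors, FOXL2WT, FOXL2C134W, FOXL2WT + FOXO1 and FOXL2C134W + FOXO1. SREBF1 had 47.1, 32.8, 38.3, 35.3 and 32.5, CEBPB 33.7, 49.0, 38.6, 42.9 and 46.0, and NR2F2 216, 228, 269, 234 and 251. The FOXL2WT count was 1 without Vectors replicate A, 2 without FOXL2WT replicate A and 3 without FOXL2WT replicate B, and the FOXL2C134W count was 2 without Vectors replicate A or FOXL2C134W replicates A or B. The FOXL2WT + FOXO1 count was 0 without Vectors replicate A and 1 without Vectors replicate B or its own replicate C, and the FOXL2C134W + FOXO1 count was 2 without Vectors replicate B or its own replicates A or B. Between FOXL2C134W and FOXL2WT it was 4 without FOXL2C134W replicate A and 1 without FOXL2WT replicate B or FOXL2C134W replicate B. Over all genes 2120, 772 and 782 were called in these fits, against 1560 with all libraries. Calls against Vectors moved within the ranges given for the sterol genes. For the enzymes, the electron donors and the regulators edgeR called 0 in the 4 comparisons that involve FOXO1 without Vectors. These are FOXO1 added to wild type, FOXO1 added to mutant, both FOXO1 conditions and the interaction, where 0.0505%, 0.714%, 0.144% and 1.38% of all genes were called. In this order, 3, 2, 1 and 2 of 19 enzymes had an unadjusted edgeR p under 0.05. The electron donors had 2, 1, 1 and 5 of 10, and the regulators 3, 5, 2 and 5 of 28. Over all genes the shares at that p were 9.13%, 11.2%, 13.5% and 12.5%. DESeq2 called 1 enzyme between both FOXO1 conditions, beside 137 of 4869 genes.

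The genes whose levels followed the most variable members best over the 15 libraries are given as a description; the libraries share conditions, so no test was made. For HSD17B1 they were DBNDD2 (Pearson r = 0.921, Spearman rho = 0.850), ATF4 (0.920 and 0.911) and EIF4EBP1 (0.913 and 0.879) on log2-CPM. For CYP11A1 they were MARVELD1 (r = 0.836), SDC3 (0.790) and PIK3CD-AS2 (0.787). For STAR they were SEMA6B (r = 0.829), SLC25A37 (0.786) and CPOX (0.786). Each was the highest of 13868 genes less the members, so values of this size are selected.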

How the data were processed

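The authors ran salmon 1.1.0 on single-end 75-bp reads, with transcripts of hg38 as the reference, summed the estimated counts to genes and deposited whole-number counts for 37787 genes in 15 libraries, without normalization. Per the file headers, the deposited transcript tables give TPM, scaled within a library by the authors' salmon run, and estimated counts per transcript. The library type setting of salmon and the annotation release are not given in the sources used here. No column was left unmapped.

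Conditions and replicates came from the labels. Counts of all genes were fitted together in edgeR 4.0.16 (R 4.3.3) with filterByExpr (13868 genes left), TMM scaling and the quasi-likelihood test, two-sided, with Benjamini-Hochberg adjustment and a threshold of 0.05; the code was tested on simulated data. Log2-CPM used a prior count of 2. Gene TPM is the sum over transcripts and served only to compare genes. Coordinates are from GENCODE 44 (GRCh38), which held 98.4% of the transcripts. Members with at most 3 counts in every library, or failing filterByExpr, were called near the floor and not tested.

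Alternatives were DESeq2 1.42.0, DESeq2 with transcript length offsets, its size factors in edgeR, no filter, at least 10 counts in every library, a replicate block, gene length and GC offsets (lowess span 0.3), only the conditions compared, and leaving out each library. Figures and tables used Python 3.11.15, pandas 2.3.3, scipy 1.17.1 and matplotlib 3.10.9.

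The members and the pathway lists were chosen with earlier results of these data known. All members were named. A fold change was printed where it passed the threshold, or otherwise as the largest of the member, and up to 4 called genes of each list were named by size of change, except 2 genes that are not reported here by name but are in the counts; further values are ranges or stand beside these. The 3 members with the widest range of condition means were given their 3 most similar genes.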

Additional observations from a re-analysis of the deposited data

How the results depend on the processing

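The number of members called was 0 in FOXL2C134W against FOXL2WT, in both comparisons of added FOXO1, between both FOXO1 conditions and in the interaction under every alternative run. Against Vectors each condition had 1. The study used DESeq2 on salmon estimates imported with tximport, and DESeq2 with transcript length offsets is the alternative closest to that. With it the number was 0 in all 4 conditions. Log2 fold changes there were 0.62 for HSD17B1, -0.92 for CYP11A1 and -0.44 and -0.48 for FDXR. In FOXL2WT leaving out a library gave 0 to 1. In FOXL2C134W the gene length offset gave 2 (FDXR and SCARB1) and leaving out a library 0 to 2. In FOXL2WT + FOXO1 the count was 0 with DESeq2 (which gave CYP11A1 no adjusted p), 0 with only the conditions compared, 2 with no filter, with at least 10 counts in every library and with the gene length offset (CYP11A1 and HSD17B1), and 0 to 1 with a library left out. In FOXL2C134W + FOXO1 it was 0 with only the conditions compared, 2 with the GC content offset (FDXR and SCARB1), 1 with no filter, where STAR was called (-0.62, edgeR adjusted p = 0.045) and FDXR was not (-0.26, 0.058), and 0 to 2 with a library left out. The direction of POR between FOXL2C134W and FOXL2WT reversed to 0.07 with transcript length offsets; the cause was not tested. The condition of highest mean was kept for 5 of 8 members in gene TPM.

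With the replicate letter as a block, the members called were 0 in FOXL2WT + FOXO1 and 0 in FOXL2C134W + FOXO1 against Vectors, where CYP11A1 had edgeR adjusted p = 0.060 and FDXR 0.051; elsewhere the block left the counts of members as they were. The letters were not treated as a pairing: deviations of same-letter libraries correlated between -0.164 and 0.166 over 30 pairs, with 2 pairs over 0.1. Depth limits CYP19A1 and HSD3B2, which had too few counts for a test with filtering, and leaves STAR and CYP11A1 with wide intervals. Over all genes the number called in FOXL2WT against Vectors was 842, and 459 with DESeq2 and transcript length offsets, the setting closest to the study's own. In FOXL2C134W against Vectors it was 2041 and 936, and in FOXL2C134W against FOXL2WT 1560 and 708. With a library left out of the edgeR fit, 305 to 662, 1275 to 2126 and 772 to 2120 were called in these comparisons in turn.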
